A study of Homo sapiens with 20 samples.

Results

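The 37 genes described here encode the machinery that takes up, activates and oxidises fatty acids in liver cells and the dehydrogenases of ketone bodies. They were chosen by function, as a list of gene symbols, and every probe whose RefSeq accession maps to 1 of these symbols was taken. This gave 39 probes of the 42405 on the array, and all 37 genes were among the 22214 genes tested. The list holds 17 mitochondrial genes, 10 peroxisomal genes, 8 genes of fatty acid uptake and activation and 2 genes of ketone body metabolism. The rule that took the probes used no measured value, but the list was drawn up with earlier results of these data known.

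HepaRG is a human hepatoma line whose progenitors differentiate in culture into hepatocyte-like and biliary-like cells, and all samples come from this single line. RNA was hybridised to 20 one-color Agilent arrays, 4 for each of 5 conditions. All cells were grown in William's E medium with serum, insulin and hydrocortisone. Cells at day 4 (D4) and day 15 (D15) had received no DMSO. Cells at day 30 had been kept either without DMSO throughout (D30 − DMSO) or with 2% DMSO from day 15 (D30 + DMSO), and cells at day 34 (D34 ± DMSO) were D30 + DMSO cultures kept for 4 more days after DMSO had been taken away. Per the methods, the replicates of a condition are independent biological replicates.

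Fatty acids enter the hepatocyte through transport proteins, are bound by a cytosolic carrier and are activated to acyl-CoA. Long chains reach the mitochondrial matrix through the carnitine shuttle and are shortened there by a dehydrogenase, a hydratase, a second dehydrogenase and a thiolase, whose electrons pass through the electron transfer flavoproteins. Peroxisomes shorten very long and branched chains and bile acid precursors with their own oxidases and thiolases, and mature hepatocytes turn much of the acetyl-CoA produced into ketone bodies.

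Values are scaled intensities, the processed signal of a probe after each array was brought to the same 75th percentile, and changes are differences of log2 means with their standard error (SE, n = 4 arrays per condition). The intensity of one probe cannot be set against that of another. A gene was called at a Benjamini-Hochberg adjusted p below 0.005 over all genes tested and a change of more than 2-fold, with limma. Between 61.1% and 74.2% of the spots of an array were well above background, and r between replicate arrays, taken across genes, ran from 0.955 to 0.992. Of the 37 genes, 34 were well above background on all arrays of every condition, and no array was saturated for any of them. The replicate 4 arrays stood apart for many of these genes. They lie on slide 4, the slide of the second scan session, and D30 − DMSO replicate 4 was the array most often far from its group. Slide 4 also holds replicate 3 of D15 and replicate 3 of D30 + DMSO. Some of the results that rest on the replicate 4 arrays are also given without slide 4. That setting drops the replicate 3 arrays too, so a call lost there can also reflect the smaller number of arrays.

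Promoter sequences are shown for genes whose levels differed most between conditions or that share a promoter region. HADHA and HADHB encode the α and β subunits of the mitochondrial trifunctional protein, and their starts lie head to head on chromosome 2 with 306 bases between the genes. FABP1, the liver fatty acid binding protein, and SLC27A5, which conjugates CoA to bile acids and long fatty acids, had, with BDH1, the largest fitted rises from D4 to D15. The 250 bases before each start are given 5′ to 3′ on the strand of the gene, from RefSeq on GRCh38.p14, at chr2:26244689-26244938 (plus strand) for HADHB, chr2:88128063-88128312 (minus strand) for FABP1 and chr19:58511993-58512242 (minus strand) for SLC27A5. The HADHB stretch lies wholly between HADHA and HADHB. Capitals mark GGGCGG read on the other strand in HADHB, TATAAA in FABP1 and CCAAT read on the other strand in SLC27A5.
HADHB: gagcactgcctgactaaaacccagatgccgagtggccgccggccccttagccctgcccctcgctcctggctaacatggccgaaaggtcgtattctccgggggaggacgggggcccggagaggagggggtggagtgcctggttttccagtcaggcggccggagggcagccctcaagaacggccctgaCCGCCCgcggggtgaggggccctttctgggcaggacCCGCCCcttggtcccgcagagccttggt
FABP1: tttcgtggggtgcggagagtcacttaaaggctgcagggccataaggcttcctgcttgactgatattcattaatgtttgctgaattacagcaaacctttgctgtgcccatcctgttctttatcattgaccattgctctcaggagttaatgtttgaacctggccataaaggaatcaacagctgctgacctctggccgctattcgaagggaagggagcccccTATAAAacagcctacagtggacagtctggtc
SLC27A5: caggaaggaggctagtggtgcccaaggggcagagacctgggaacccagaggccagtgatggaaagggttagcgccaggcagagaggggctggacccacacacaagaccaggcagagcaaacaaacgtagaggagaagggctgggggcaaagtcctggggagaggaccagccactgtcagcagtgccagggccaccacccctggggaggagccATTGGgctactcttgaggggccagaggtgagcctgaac

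The table of promoters, each from 250 bases before to 50 bases after a start, held 43 promoters for 32 of the 37 genes. GGGCGG was found on either strand in 27 of the 43 (62.8%) and in 45% of all 35116 promoters. CCAAT was found in 10 of the 43 (23.3%) against 34.6% of all promoters, and TATAAA in 4 (9.3%) against 11.5%. The TATAAA of FABP1 starts 31 bases before its start site and the CCAAT of SLC27A5 lies 38 bases before its own. The direct repeat AGGNCANAGGNCA, a form of the element bound by PPAR and HNF4 factors, was found in none of the 43 windows and in 0.31% of all promoters. These are matches of letters on both strands, and a window without a match says only that the letters are not in it.

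From D4 to D15, before any DMSO was given, genes of every step rose and none of the 37 was called lower. Only ACSL3 and CROT had fitted changes below 0. The steepest fitted changes were those of FABP1, which rose 129-fold, and of SLC27A5, BDH1 and ACOX2. These last 3 were not well above background on all D4 arrays and entered the test through the other conditions. Both the size of their rise and its p-value therefore depend on how background was treated. They are among the 11 genes called. In all, 11 of 37 genes were called higher, against 5.79% of all genes tested, and 0 were called lower, against 3.7%. When genes had to be above background on all arrays, 34 were tested and 9 called higher, against 852 of all 18186 genes then tested. The methods' t-test did not call ACADS, ACAA2 and EHHADH (adjusted p of 0.00554 to 0.0447). At an adjusted p below 0.05 without a fold limit, 29 were higher (12.5% of all genes) and 0 lower (11.2%). For 27 genes the lowest D15 array exceeded the highest D4 array, against 12.7% of all genes. The median change of the 37 genes was 0.80 on the log2 scale, against 0.04 over all genes tested.

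**Figure D1:**
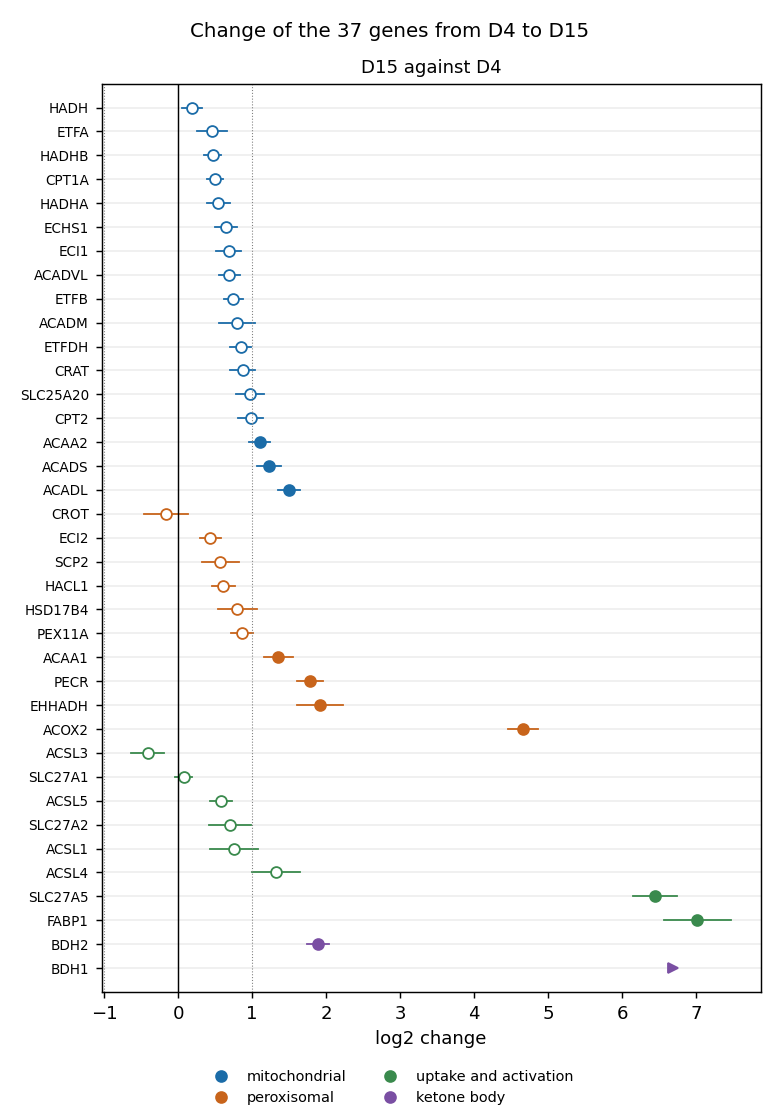
Log2 change from D4 to D15 for each of the 37 genes, grouped by role. Points are fitted changes and lines their SE (n = 4 arrays per condition), filled points were called, dotted lines mark a 2-fold change, and the triangle of BDH1 is a bound set by the lowest signal called above background at D4. The 17 mitochondrial points lie between 0.19 (HADH) and the 2.83-fold of ACADL, while ACOX2, SLC27A5, FABP1 and BDH1 lie far to the right.

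FABP1 carries fatty acids in the cytosol of hepatocytes. Its scaled intensity was 82.2, 314, 47.9 and 238 on the D4 arrays and 19100, 17700, 13000 and 18500 on the D15 arrays. The D4 arrays differed widely among themselves, yet all lay far below every D15 array (log2 change 7.01, SE 0.45, adjusted p = 2.48e-09). SLC27A5 lay between 19.3 and 20.8 on the D4 arrays, 3 of which were above background, and at 1860, 1460, 1490 and 2250 at D15 (6.44, SE 0.29, adjusted p = 6.41e-11). With a normexp background correction its change was 4.22. ACSL4, an acyl-CoA synthetase that prefers arachidonic acid, read 174, 207, 183 and 462 at D4 and 468, 577, 591 and 752 at D15. The groups did not overlap, but replicate 4 of D4 came close to the lowest D15 array, and the adjusted p of 0.00509 fell just short of the call (1.33, SE 0.32). ACSL1, the main acyl-CoA synthetase of liver, read 2070, 2780, 1960 and 5530 at D4 and 4070, 3700, 4400 and 7630 at D15. The groups overlapped through replicate 4 of D4 (0.76, SE 0.33, adjusted p = 0.11). The other 4 genes of this group, SLC27A1, SLC27A2, ACSL3 and ACSL5, were not called, and ACSL3 was the lowest at -0.41 (SE 0.22, adjusted p = 0.22).

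Both ketone body dehydrogenases rose. BDH1 interconverts acetoacetate and β-hydroxybutyrate in mitochondria. None of its D4 arrays was well above background, and it read 869, 772, 558 and 632 at D15. The fitted change had an adjusted p of 3.13e-11 with limma, but it rests on D4 values that were not well above background. Against the lowest signal called above background on each D4 array, BDH1 was at least 103-fold higher. That bound holds only for this choice of background, and the log2 change was 6.12 with a floor of 10 and 3.46 with normexp. BDH2, a cytosolic relative, read 48, 48.9, 63.5 and 65.8 at D4 and 165, 208, 212 and 252 at D15. Every D15 array lay above every D4 array (1.89, SE 0.15, adjusted p = 3.36e-08).

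Among the peroxisomal genes, 4 of 10 were called higher and the median change was 0.83. ACOX2, the oxidase of branched chains and bile acid intermediates, read 13, 13.4, 11 and 11.8 at D4, where 2 of 4 arrays were above background, and 328, 318, 276 and 321 at D15 (4.66, SE 0.21, adjusted p = 4.36e-11). With normexp its change was 2.26. EHHADH, the peroxisomal bifunctional enzyme, read 46.8, 174, 52.4 and 111 at D4 and 258, 315, 270 and 437 at D15. Its D4 arrays were widely spread but did not reach the D15 arrays (1.92, SE 0.31, adjusted p = 0.000139), and without slide 4 the adjusted p was 0.0102. PECR, a reductase of unsaturated acyl-CoA, read 257, 284, 226 and 366 at D4 and 875, 936, 859 and 1190 at D15 (1.78, SE 0.18, adjusted p = 5.63e-07). ACAA1, the peroxisomal thiolase, read 4830, 6290, 6200 and 5660 at D4 and 14200, 14800, 15300 and 14100 at D15 (1.35, SE 0.19, adjusted p = 3.3e-05). The D15 arrays of ACAA1 lay close together and all above the D4 arrays. PEX11A, which takes part in peroxisome division, read 255, 242, 216 and 255 at D4 and 380, 516, 427 and 447 at D15, a change of less than 2-fold (0.87, SE 0.15, adjusted p = 0.000183). The other 5, HSD17B4, HACL1, SCP2, ECI2 and CROT, lay between -0.17 and 0.80 and were not called.

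Among the mitochondrial genes, 3 of 17 were called higher, 15 were higher at an adjusted p below 0.05, and the median change was 0.75. All 17 fitted changes were above 0, as were 53.5% of those of all genes tested. ACADL, the long-chain acyl-CoA dehydrogenase, read 379, 458, 324 and 363 at D4 and 1280, 935, 833 and 1320 at D15 (2.83-fold, SE 0.15 on the log2 scale, adjusted p = 4.35e-07). ACADS, the short-chain dehydrogenase, read 75.1, 91.3, 118 and 102 at D4 and 182, 202, 311 and 216 at D15 (1.23, SE 0.17, adjusted p = 1.65e-05). In both genes the groups were well separated. ACAA2, the mitochondrial thiolase, read 3850, 3920, 4860 and 4750 at D4 and 8330, 8470, 8750 and 11900 at D15 (1.10, SE 0.14, adjusted p = 1.23e-05). Replicate 4 of D15 stood above the other 3, and without it the change of ACAA2 was 0.98, under 2-fold. CPT2, the inner carnitine palmitoyltransferase, came closest to the fold limit from below (0.98, SE 0.17, adjusted p = 0.0002), with arrays at 895, 914, 992 and 916 and then at 1700, 1820, 1940 and 1880. SLC25A20, the carnitine-acylcarnitine carrier, was at 383, 583, 438 and 693 and then at 765, 1040, 980 and 1300 (0.97, SE 0.19, adjusted p = 0.000843). The groups of both genes did not overlap. HADHA and HADHB, whose shared upstream region is printed above, were higher by 0.54 (SE 0.16, adjusted p = 0.0147) and 0.47 (SE 0.12, adjusted p = 0.00542), and HADH, the dehydrogenase for shorter chains, had the lowest change of the 17 (0.19, SE 0.13, adjusted p = 0.38). The remaining 9, among them CPT1A, ACADVL, ACADM and CRAT, lay between 0.46 and 0.88.

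Cell type markers moved over the same interval. The summed intensity of 6 hepatocyte markers was 81800 to 170000 at D4 and 708000 to 1050000 at D15, and that of 5 proliferation markers 4430 to 6210 and 416 to 984. The 5 biliary and progenitor markers tested summed to 122000 to 193000 and 93000 to 123000, and 3 mesenchymal markers to 2470 to 5020 and 1540 to 2200. Most of the biliary and progenitor sum was KRT19, at 82600 to 149000 and 59500 to 81700. At an adjusted p below 0.05 with limma, 2 of these 5 markers were higher and 2 lower, while 1 was called higher and 0 lower. No tested marker was below background on all arrays of a condition. Their part in the rise was not tested, and in bulk RNA a larger share of hepatocyte-like cells and more RNA per cell cannot be told apart. Within the 3 slides that hold both D4 and D15 arrays, all 11 called genes kept their direction. Without slide 4 the count was also 11, against 1257 of 22214 genes called higher, but EHHADH was no longer called and ACSL4 was.

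From D15 to D30 without DMSO, 0 of 37 genes were called, against 0.0045% of all genes higher and 0% lower. With limma 0 of 37 passed an adjusted p of 0.05, against 0.045% of all genes higher, and the methods' t-test also called 0. An unadjusted p below 0.05 with limma was found for 4, but the share of all genes at that limit was not counted. The median change of the 37 was 0.08. In 3 genes, ACOX2, ACSL5 and FABP1, all 4 arrays of D30 − DMSO lay above all 4 of D15, which held for 1.23% of all genes. FABP1 had the largest difference of the 37, with D30 − DMSO arrays at 47400, 47100, 38200 and 24200 (1.17, SE 0.45, adjusted p = 1).

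DMSO given from day 15 to day 30 went with higher levels of several peroxisomal genes and of SLC27A5, while no mitochondrial gene was called. In D30 + DMSO against D30 − DMSO, 5 of 37 genes were called higher, against 1.73% of all genes tested, and 0 lower, against 4.18%. They were EHHADH (chr3:185190624-185254049 on GRCh38.p14), ACAA1 (chr3:38122715-38137127), SCP2 (chr1:52927276-53051698), HACL1 (chr3:15560699-15601569) and SLC27A5 (chr19:58498333-58511992), with changes between 2.19-fold and 3.64-fold. Without slide 4, EHHADH and SCP2 were no longer called and BDH1 was, which made 4, against 275 of 22214 genes called higher. The methods' t-test called 2 of the 5, EHHADH and HACL1, and called 197 of the 22161 genes it tested higher. In 17 genes the arrays with DMSO all lay above those without it (12.5% of all genes), and in 2 all below (12.5%). At an adjusted p below 0.05 without a fold limit, 16 were higher (8.38% of all genes) and 2 lower (10.1%). The median change of the 10 peroxisomal genes was 0.87 and all 10 were fitted above 0, as were 54.6% of all genes. That of the 17 mitochondrial genes was 0.26, that of the 8 uptake and activation genes 0.57, and that of all genes tested 0.04. These medians describe the lists and were not tested against each other.

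**Figure D2:**
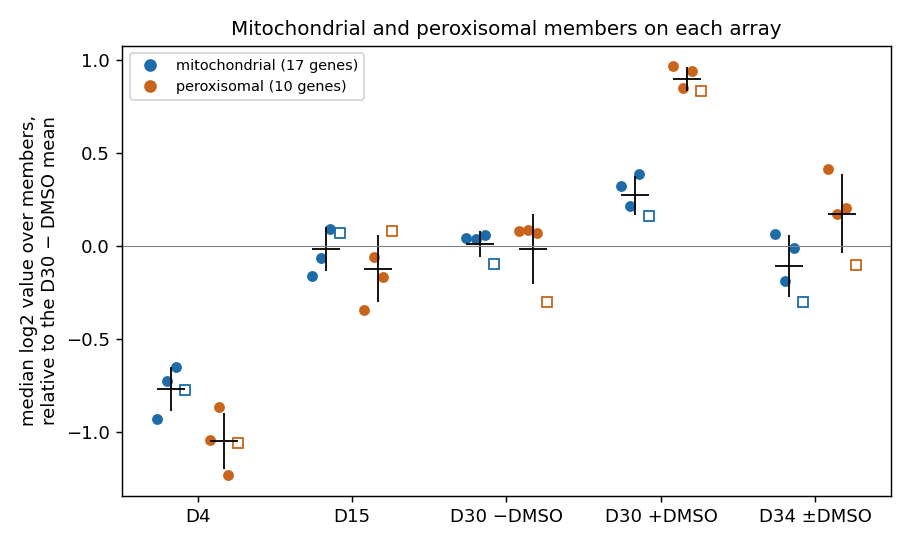
Median log2 value over the 17 mitochondrial and the 10 peroxisomal genes on each array, relative to each gene's mean in D30 − DMSO, for the 5 conditions. Points are arrays, open squares are replicate 4, horizontal lines are means and vertical lines SD (n = 4). In D30 + DMSO the peroxisomal medians lie between 0.83 and 0.96 and the mitochondrial medians between 0.16 and 0.39.

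ACAA1 read 17300, 15900, 16800 and 10800 in D30 − DMSO and 39600, 36000, 41500 and 29800 in D30 + DMSO. Every array with DMSO lay above every array without it, and replicate 4 was the lowest of both groups (1.29, SE 0.19, adjusted p = 0.000101). HACL1, the lyase that removes 1 carbon from branched and 2-hydroxy acids, read 2220, 2430, 2410 and 1760 without and 4760, 5080, 5370 and 4070 with DMSO (1.13, SE 0.15, adjusted p = 3.48e-05). EHHADH read 313, 345, 356 and 311 without and 729, 847, 988 and 997 with DMSO. Its groups were far apart, but the error pooled over conditions includes its wide spread at D4, and its adjusted p of 0.00324 (1.42, SE 0.31) was not below the threshold when any 1 of the 8 arrays was left out. Without slide 4, which also drops replicate 3 of D30 + DMSO, its adjusted p was 0.11.

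SCP2 encodes a peroxisomal thiolase of branched chains and, from a second start, the sterol carrier protein. Its brighter probe read 5330, 5600, 4180 and 3030 without and 9950, 11900, 11900 and 8080 with DMSO (1.23, SE 0.25, adjusted p = 0.0017). Replicate 4 was again the lowest of both groups, and the groups did not overlap. The call was lost when replicate 3 or 4 of D30 − DMSO or replicate 2 or 3 of D30 + DMSO was left out (adjusted p of 0.00624 to 0.00796) and without slide 4 (0.0172). The dimmer probe of SCP2, designed on another transcript, read 120, 119, 114 and 64.5 without and 457, 396, 432 and 302 with DMSO (1.95, SE 0.24, adjusted p = 1.52e-05). The dimmer probe was also called from D4 to D15, where the brighter was not (1.61 and 0.57).

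SLC27A5 had the largest change of the 37. It read 3010, 2980, 3110 and 1420 without and 10300, 9160, 11400 and 6470 with DMSO (1.86, SE 0.29, adjusted p = 0.000156). Replicate 4 lay below the other 3 in both groups. SLC27A2, the transporter and synthetase of very long chains, read 1150, 1220, 1080 and 764 without and 1980, 2620, 2620 and 2100 with DMSO. Its change was over 2-fold and its groups were apart, but its adjusted p of 0.0062 (1.16, SE 0.28) missed the threshold. SLC27A1, a plasma membrane transporter, depended on the probe, with 0.20 (SE 0.12, adjusted p = 0.3) for the brighter and 1.22 (SE 0.15, adjusted p = 1.07e-05) for the dimmer. FABP1 read 100000, 88100, 82900 and 43600 with DMSO, and its groups overlapped because replicate 4 lay below 2 of the arrays without DMSO (0.99, SE 0.45, adjusted p = 0.152). Of the acyl-CoA synthetases, ACSL5 was higher at an adjusted p of 0.0153 (0.54, SE 0.15), and ACSL1, ACSL3 and ACSL4 lay between 0.30 and 0.59 and did not pass.

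**Figure D3:**
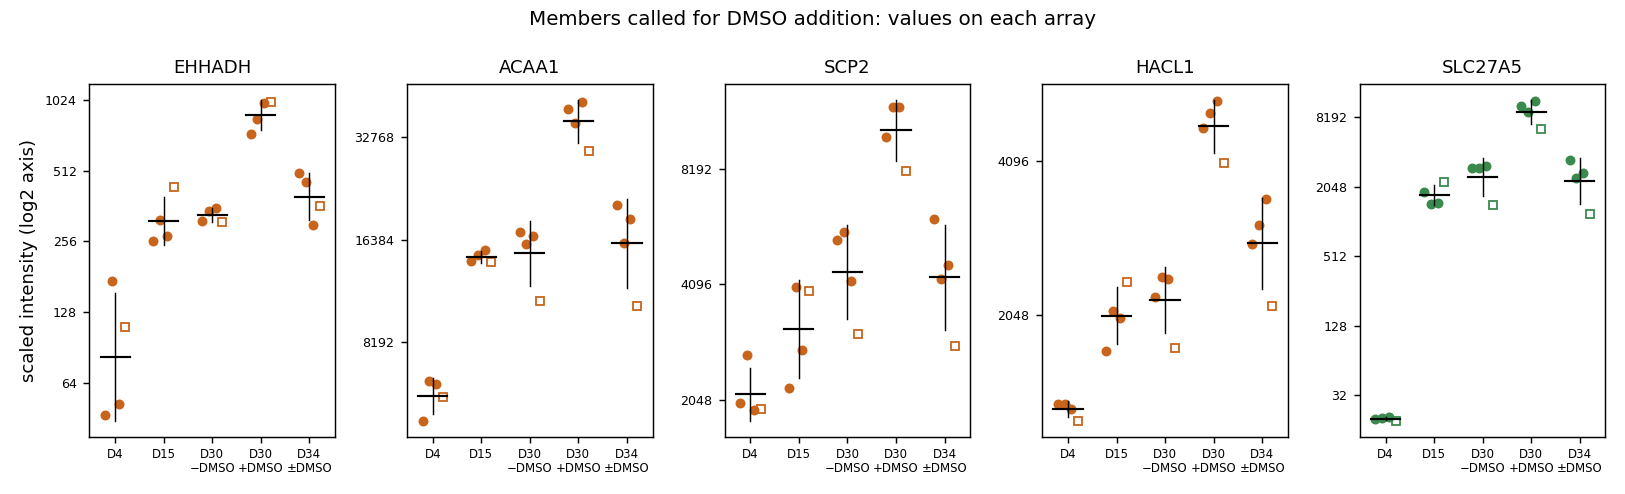
Scaled intensity (log2 axis) of the 5 genes called for DMSO addition on each of the 20 arrays, by condition. Circles are replicates 1 to 3, open squares replicate 4, horizontal lines the mean and vertical lines the SD of the log2 values (n = 4). In all 5 panels the D30 + DMSO arrays lie above the D30 − DMSO arrays, and the D34 ± DMSO arrays lie below those of D30 + DMSO.

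The remaining peroxisomal genes showed smaller differences. CROT, which puts medium chains on carnitine for export, was higher at an adjusted p of 0.029 (0.97, SE 0.30), ACOX2 at 0.0127 (0.76, SE 0.21), PEX11A at 0.00319 (0.66, SE 0.15) and PECR at 0.0412 (0.55, SE 0.18). HSD17B4, a second bifunctional enzyme, and ECI2, an isomerase, each had a change of 0.28 that did not pass. Of the ketone body genes, BDH1 read 1270, 1400, 1380 and 647 without and 3050, 2770, 1890 and 1540 with DMSO (0.99, SE 0.31, adjusted p = 0.0318), and BDH2 had -0.21 (SE 0.15, adjusted p = 0.43).

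Mitochondrial genes moved in both directions, all by less than 2-fold. The values of HADH, ECHS1, ETFDH and ETFA are given because they passed an adjusted p of 0.05, a choice made after their values were seen. HADH read 5770, 6120, 6390 and 4940 without and 11700, 12100, 12000 and 9840 with DMSO, and it stood just under the fold limit (0.98, SE 0.13, adjusted p = 4.06e-05). ECHS1, the hydratase of short chains, read 11700, 11900, 12100 and 10900 without and 19400, 18700, 22300 and 17400 with DMSO (0.74, SE 0.15, adjusted p = 0.00123). Neither gene's groups overlapped. ETFDH, which passes the electrons to ubiquinone, was higher by 0.68 (SE 0.14, adjusted p = 0.00191), and ETFA, a subunit of the electron transfer flavoprotein, by 0.65 (SE 0.20, adjusted p = 0.0289). ACADS went the other way, from 211, 209, 225 and 225 to 143, 119, 122 and 106 (-0.83, SE 0.17, adjusted p = 0.00137). ACADL was also lower with DMSO, at 711, 844, 700 and 720 against 1190, 1040, 1050 and 1020 (-0.53, SE 0.15, adjusted p = 0.0166). All arrays of ACADS and ACADL with DMSO lay below all arrays without it. CPT1A, which controls entry into the carnitine shuttle, had a difference of 0.07 (SE 0.11), HADHA of 0.02 (SE 0.16) and HADHB of 0.07 (SE 0.12). The remaining 8 lay between -0.04 for ACADM and 0.42 for CPT2 and did not pass.

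**Figure D4:**
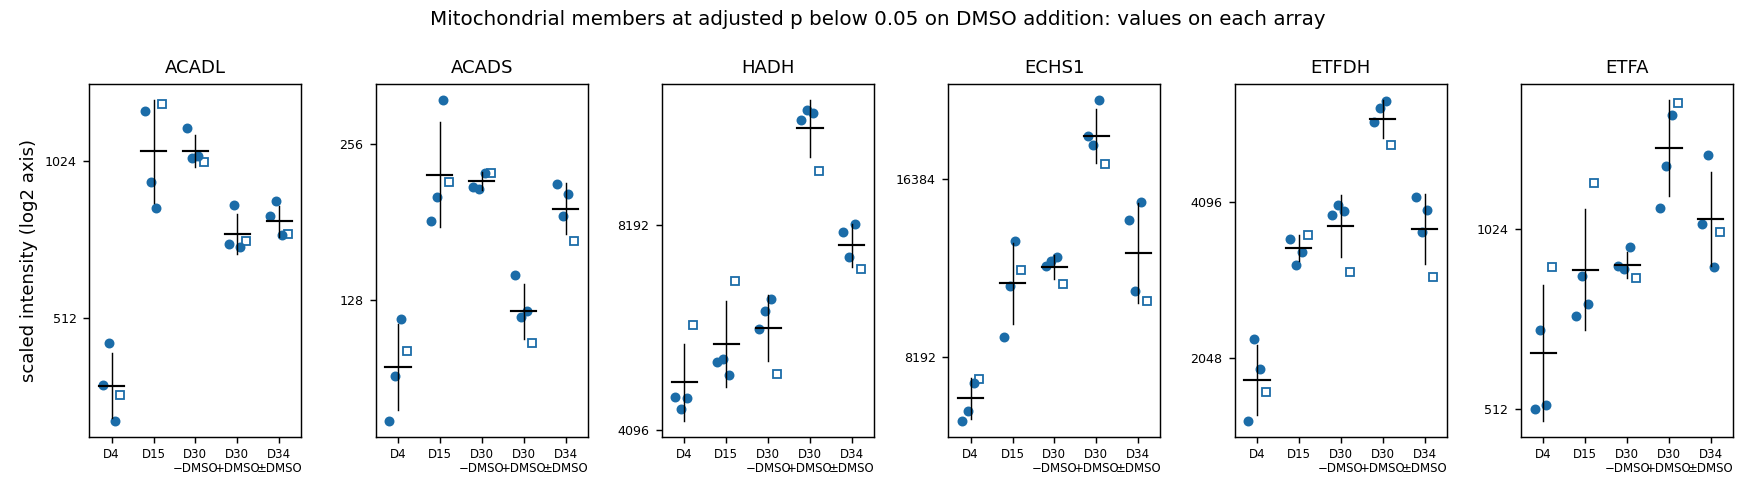
Scaled intensity (log2 axis) on each of the 20 arrays for the 6 mitochondrial genes with an adjusted p below 0.05 for DMSO addition. Circles are replicates 1 to 3, open squares replicate 4, horizontal lines the mean and vertical lines the SD of the log2 values (n = 4). ACADL and ACADS lie lower in D30 + DMSO than in D30 − DMSO, and HADH, ECHS1, ETFDH and ETFA lie higher.

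When DMSO was taken away for 4 days, 3 of the 37 genes were called lower and none was called higher. No samples were kept in DMSO until day 34, so DMSO removal and 4 more days of culture cannot be told apart. In D34 ± DMSO against D30 + DMSO, 0 were called higher, against 4.96% of all genes tested, and 3 lower, against 2.1%. They were SLC27A5, SCP2 and ACAA1. Without slide 4 the call of SCP2 was lost, and the methods' t-test called none of the 3 (adjusted p of 0.0191 to 0.0252). At an adjusted p below 0.05 without a fold limit, 16 were lower (11.4% of all genes) and 1 higher (10.7%). The median change was -0.61 for the peroxisomal, -0.36 for the mitochondrial and -0.64 for the uptake and activation genes, and -0.07 over all genes tested. This comparison uses the same D30 + DMSO arrays as that of DMSO addition, so the changes of one are not independent of those of the other.

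SLC27A5 read 3510, 2440, 2700 and 1200 at D34, all below the lowest D30 + DMSO array (-1.99, SE 0.29, adjusted p = 6.32e-05). ACAA1 read 20700, 16000, 18900 and 10500 at D34 (-1.19, SE 0.19, adjusted p = 0.000179). Replicate 4 of D34 was the lowest array of both genes, and without it the change of ACAA1 was -0.98, under 2-fold. SCP2 read 6050, 4220, 4600 and 2830 with its brighter probe (-1.27, SE 0.25, adjusted p = 0.00101), and its dimmer probe had -1.73 (SE 0.24, adjusted p = 4.2e-05). Without slide 4 the brighter probe had -1.15 (adjusted p = 0.0128). EHHADH at 499, 459, 300 and 361 was lower by over 2-fold, with an adjusted p of 0.012 (-1.15, SE 0.31). HACL1 at 2820, 3070, 3460 and 2130 was lower by less than 2-fold (-0.76, SE 0.15, adjusted p = 0.00121). The D34 arrays of both lay wholly below their D30 + DMSO arrays.

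Further genes were lower after DMSO removal by less than 2-fold at an adjusted p below 0.05. Among the peroxisomal and uptake genes these were SLC27A2 (-0.99, SE 0.28), PEX11A (-0.71, SE 0.15), ACSL5 (-0.65, SE 0.15) and PECR (-0.52, SE 0.18), and of the ketone body genes BDH2 (-0.53, SE 0.15). In SLC27A1, the brighter probe had -0.51 (SE 0.12, adjusted p = 0.00352) and the dimmer -1.35 (SE 0.15, adjusted p = 2.44e-06). ETFDH (-0.71, SE 0.14), ECHS1 (-0.66, SE 0.15), HADH (-0.57, SE 0.13), CPT2 (-0.55, SE 0.17) and HADHB (-0.34, SE 0.12) were the mitochondrial genes among them. ACADS was higher after removal, at 214, 186, 205 and 166 (0.65, SE 0.17, adjusted p = 0.00754), whereas ACADL read 804, 857, 740 and 742 (0.08, SE 0.15, adjusted p = 0.80). ACOX2, CROT and ACADVL, the very long chain dehydrogenase, had fitted changes of 0.19, -0.09 and 0.06 that did not pass.

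**Figure D5:**
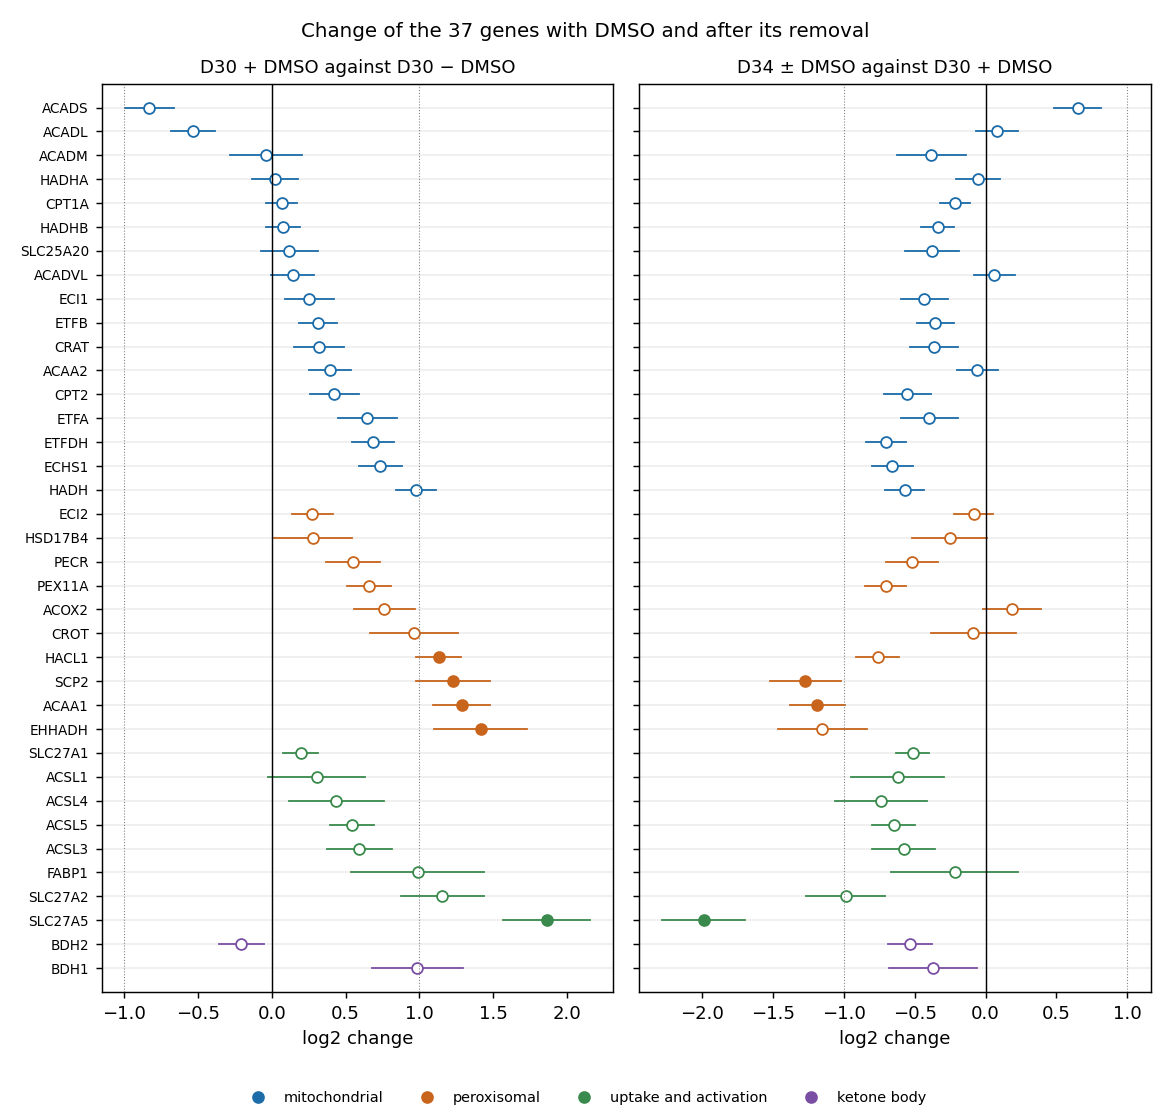
Log2 change of each of the 37 genes in D30 + DMSO against D30 − DMSO (left) and in D34 ± DMSO against D30 + DMSO (right), grouped by role and ordered by the left panel. Points are fitted changes and lines their SE (n = 4 arrays per condition), filled points were called and dotted lines mark a 2-fold change. The panels share the D30 + DMSO arrays. On the left 5 points are filled and on the right 3.

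The D34 cells were also set against D30 − DMSO cells, from which they differ both in past DMSO and by 4 days of culture. None of the 37 genes was called with limma, against 1.31% of all genes higher and 0.212% lower, and the methods' t-test called 0. An unadjusted p below 0.05 with limma was found for 9, but the share of all genes at that limit was not counted. At an adjusted p below 0.05, 1 was higher (2.66% of all genes) and 1 lower (2.08%). ACOX2 was higher at 1380, 949, 1270 and 784 against 673, 583, 574 and 412 (0.95, SE 0.21, adjusted p = 0.00833), with no overlap. BDH2 was lower at 169, 134, 142 and 120 against 222, 269, 240 and 211 (-0.74, SE 0.15, adjusted p = 0.00571), also with no overlap. For the 5 genes called for DMSO addition, the changes against D30 − DMSO were 0.26 for EHHADH (SE 0.31), 0.10 for ACAA1 (SE 0.19), -0.05 for SCP2 (SE 0.25), 0.37 for HACL1 (SE 0.15) and -0.13 for SLC27A5 (SE 0.29). The 95% intervals of these differences were -0.40 to 0.92 for EHHADH, -0.31 to 0.51 for ACAA1, -0.57 to 0.48 for SCP2, 0.05 to 0.69 for HACL1 and -0.74 to 0.49 for SLC27A5.

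Of the 55 other genes of these pathways that were listed, 51 were tested. For DMSO addition 1 was called higher, against 1.73% of all genes, and 1 lower, against 4.18%. For removal 1 was called higher, against 4.96%, and 2 lower, against 2.1%. CAT, the peroxisomal catalase, was higher with DMSO (1.38, SE 0.17, adjusted p = 1.31e-05) and lower after removal (-1.46, SE 0.17, adjusted p = 4.78e-06). FABP4, the adipocyte fatty acid binding protein, was called lower with DMSO (adjusted p = 0.0019). With DMSO 1 of 4 arrays was above background, so its fitted change of -2.94 (SE 0.61) is not a measured size. FABP5, the epidermal form, rose after removal (1.68, SE 0.39, adjusted p = 0.00387) from a level at which 3 of 4 arrays were above background, and PPARD, a nuclear receptor for fatty acids, fell (-1.07, SE 0.12, adjusted p = 3.53e-06). Of the 16 other peroxisomal genes, 7 were higher with DMSO at an adjusted p below 0.05 and 0 lower, and of the 12 other mitochondrial genes 1 was higher and 0 lower, against 8.38% of all genes higher and 10.1% lower.

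Markers of cell state moved with DMSO and its removal. The proliferation markers summed to 610 to 1010 in D30 − DMSO, 334 to 871 in D30 + DMSO and 4100 to 9250 at D34. The hepatocyte markers summed to 909000 to 965000, 1020000 to 1730000 and 863000 to 1110000, the biliary and progenitor markers to 90700 to 94800, 66700 to 96800 and 73500 to 111000, and the mesenchymal markers to 1370 to 2450, 867 to 1560 and 1830 to 3190. ALB, TTR and SERPINA1 made up most of the hepatocyte sum, and ACTA2 most of the mesenchymal sum. KRT19 made up most of the biliary and progenitor sum, in which SPP1 and SOX9 moved in opposite directions. SPP1, a secreted phosphoprotein of biliary cells, read 2760 to 2990, 589 to 1360 and 3190 to 4480 in the same order, and was called lower with DMSO (-1.78, SE 0.24) and higher after removal (2.22, SE 0.24). SOX9, a transcription factor of biliary and progenitor cells, read 59.7 to 78.9, 133 to 200 and 26 to 45.9, and was called higher (1.31, SE 0.24) and then lower (-2.09, SE 0.24). Their part in the changes of these genes was not tested. Within slides 3 and 4, which hold all the D30 + DMSO arrays, the 5 genes called for addition and the 3 called for removal kept their direction on both slides. When the fit held no arrays but the 8 compared, 1 gene stayed called for removal, SLC27A5.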

How the data were processed

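RNA of HepaRG cells was labelled with Cy3 and hybridised to 20 one-color Agilent 8x60K arrays. The authors deposited the Feature Extraction output of each array (version 10.7.3.1 per the labels, 10.7.1.1 per the file headers), in which the processed signal gives the intensity of a spot after background subtraction and detrending, without scaling between arrays. A second deposited table holds normalized log2 values. Over 21535 probes that were bright on every array, it equalled the log2 processed signal less the array's 75th percentile, up to 1 constant per probe and a shift of no more than 0.113 per array. The match is not shown for other probes, and the column medians lay between -0.204 and 0.171.

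Spots flagged as outliers (265 to 644 of 58717 per array) were left out and spots of a probe were averaged. Each array was brought to the same 75th percentile, values under 1 were raised to 1, and log2 was taken. A probe needed to be well above background on all 4 arrays of some condition (26531 of 42405 were), and each gene was represented by its brightest probe on average. Probes were named through RefSeq accessions. One model with 5 condition means was fitted over the 20 arrays with limma 3.58.1 (R 4.3.3, data.table package 1.17.8), and p-values were adjusted over all 22214 genes. Values of the dimmer probes of SCP2 and SLC27A1 come from a separate fit of the same model over all 26531 kept probes. Their p-values were adjusted over those probes. The thresholds are those of the methods. The calling step was tested on simulated data with 4-fold changes and independent noise on each array. Those data held no slide or replicate effects, so the test does not cover these effects or smaller changes. With 4 arrays per condition, their number limits the precision.

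The genes, the lists, the tests and the alternatives were chosen with earlier results of these data known. Values on every array are given for genes called for DMSO addition or removal and for those with the largest change from D4 to D15 in each group. Of the other pathway genes, those called for addition or removal are named. Alternatives tried were quantile normalization, a normexp correction with an offset of 50, the authors' matrix, a floor of 10, other filters, the mean of a gene's probes, a block of slide, scan session or replicate number, a fit without the other conditions, the methods' t-test, other thresholds and leaving out each array. Leaving out slide 4 was added after the data were seen.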

Additional observations from a re-analysis of the deposited data

Results flagged for a closer look

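In 20 of 185 groups of 4 arrays, 1 array lay apart from the other 3, with a gap to its nearest neighbour that took more of the group's range than Dixon's test at 95% allows. Chance flags about 1 in 20 groups, and 15 of the 20 flags fell on replicate 4. The numbers below are the share of the range taken by the gap, on the log2 scale. In D30 − DMSO, replicate 4 lay below the others for PECR (0.943), SLC27A5 (0.945), CRAT, the carnitine acetyltransferase (0.883), ACADM, the medium-chain dehydrogenase (0.877), BDH1 (0.876), ETFDH (0.85) and ECI2 (0.84), and above them for ACSL1 (0.881), ACSL4 (0.878) and ACSL3 (0.848). In D30 + DMSO, replicate 4 lay below the others for HADH (0.866) and PECR (0.849). Replicate 4 lay above the others at D15 for CROT (0.887) and ACAA2 (0.864) and at D4 for HADH (0.857).

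The other flags fell on different arrays. Replicate 1 of D30 − DMSO was high for ACADL (0.864) and replicate 2 low for ACSL5 (0.842), replicate 2 of D30 + DMSO was high for ACADL (0.85), replicate 3 of D34 ± DMSO was low for ACSL1 (0.884), and replicate 2 of D4 was high for SCP2 (0.881). No comparison of effects between groups and no data outside the arrays' main measurement were flagged.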

How the results depend on the processing

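No called change reversed under the alternatives tried. Of 432 values of the 19 called changes over the alternatives, 398 kept their call and 34 did not. In all, 9 of the 19 kept it in every alternative that tested them. The 432 leave out ACOX2, BDH1 and SLC27A5 when all arrays had to be above background, as they were not tested there. The looser thresholds were applied to the main fit, so every called change had to keep its call there. Of the main counts of 11, 0, 5, 3 and 0 (D4 to D15, D15 to D30 − DMSO, DMSO addition, DMSO removal, D34 against D30 − DMSO), the methods' t-test gave 2 for addition and 0 for removal, and a fit of only the arrays compared gave 1 for removal. An adjusted p below 0.05 gave 29, 0, 18, 17 and 2, and with more than 1.5-fold 24, 0, 15, 11 and 2. Leaving out 1 array gave 10 to 13, 0, 3 to 5, 2 to 3 and 0 to 1. Other settings stayed within 1.5 times these counts. EHHADH lost its call for addition under 11 of 23 alternatives and SCP2 under 7, with the looser thresholds counted among the 23.

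With normexp the median for addition was 0.11 for mitochondrial and 0.64 for peroxisomal genes. ACADS lost its D15 call with normexp (0.80). Genes dim at D4 (ACOX2, SLC27A5, BDH1) drop out when all arrays must be above background, which left 34 genes, and their D15 changes ranged from 2.26 to 4.76, 4.22 to 6.55 and 3.46 to 7.86 over the alternatives.

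The replicate numbers did not meet the criterion for pairing, that every pair of same-numbered arrays correlates by more than 0.1 in its deviations from the condition means. Over the 5 comparisons replicate 1 gave r of 0.32 to 0.58 and replicate 4 of 0.59 to 0.80, but replicate 2 gave -0.10 to 0.36 and replicate 3 -0.33 to 0.06. Same-numbered arrays had a median r of 0.07 on different slides and 0.58 on the same slide, against -0.23 and 0.30 for arrays of different number, and 16 of 20 arrays correlated best with one of their own number. With the replicate number as a block the counts were 12, 0, 5, 3 and 0.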
